A study of Mus musculus with 12 samples.

Results

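The 7 genes described here were Ciita and 6 genes of MHC class II antigen presentation, Cd74, H2-Aa, H2-Ab1, H2-Eb1, H2-DMa and H2-DMb1. They were found by gene name among the 29428 genes of the expression table, all 7 were present, and all 7 were among the 16127 genes with a level of 0.5 or more in 3 or more libraries, which were the genes tested. Levels are in TPM (transcripts of a gene as a share of all transcripts, corrected for length). STHdhQ7/Q7 and STHdhQ111/Q111 are immortalised mouse striatal lines that carry 7 and 111 glutamines, respectively, in huntingtin, and each genotype is represented by 1 line, so that huntingtin genotype and cell line cannot be told apart. Poly(A) RNA was sequenced from 4 groups of 3 libraries each: nontreated STHdhQ7 cells (Q7-C), STHdhQ7 cells given 100 ng/mL murine interferon-gamma (IFNγ) with 5 μg/mL lipopolysaccharide (LPS) for 24 h (Q7-T), nontreated STHdhQ111 cells (Q111-C) and STHdhQ111 cells given the same treatment (Q111-T). All cells were grown at 33 °C and used within 20 passages, and both agents were given together, so that the effect of either alone was not measured. The genes were chosen because Ciita had been seen to be higher in Q7-T than in Q111-T, so every value that sets Q111-T against Q7-T, or the response of one line against that of the other, is given for these genes as a description with no test.

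MHC class II molecules are heterodimers of an alpha and a beta chain that present peptides, mostly from endocytosed proteins, to CD4+ T cells. They are made mainly by professional antigen-presenting cells such as dendritic cells, B cells and macrophages, and many other cell types make them after exposure to IFNγ. Ciita, the class II transactivator, does not bind DNA itself but docks on the X and Y boxes of class II promoters through the RFX, CREB and NF-Y factors already bound there, and in non-haematopoietic cells its transcription is switched on by IFNγ, with IRF1 among the factors involved.

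The promoter sequences are shown because Ciita acts through the X and Y boxes of class II promoters. Of the 7 genes, RefSeq promoter windows on GRCm38.p6 were at hand for H2-Aa, H2-Eb1, H2-DMb1 and H2-DMa. The 250 bases before the RefSeq start were searched on both strands for an X box (CTAGNAAC), an X2 box (TGACGTCA, which reads the same on both strands) and a Y box (TGATTGG), letters that were chosen with these sequences in view. Each window below is written 5′ to 3′ on the gene's strand with the matches in capitals, and H2-DMb2, the paralog of H2-DMb1, is included for comparison.

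H2-Aa, chr17:34287824-34288073, minus strand: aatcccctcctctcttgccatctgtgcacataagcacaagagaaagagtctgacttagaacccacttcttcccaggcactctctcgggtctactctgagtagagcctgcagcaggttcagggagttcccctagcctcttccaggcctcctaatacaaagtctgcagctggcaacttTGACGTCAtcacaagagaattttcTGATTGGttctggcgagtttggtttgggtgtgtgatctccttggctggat
H2-Eb1, chr17:34305617-34305866, plus strand: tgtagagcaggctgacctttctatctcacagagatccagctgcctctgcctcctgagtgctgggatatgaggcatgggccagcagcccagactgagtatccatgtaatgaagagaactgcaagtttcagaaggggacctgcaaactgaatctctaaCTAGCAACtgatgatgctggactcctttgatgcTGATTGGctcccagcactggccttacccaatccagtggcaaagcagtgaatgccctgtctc
H2-DMb1, chr17:34152941-34153190, plus strand: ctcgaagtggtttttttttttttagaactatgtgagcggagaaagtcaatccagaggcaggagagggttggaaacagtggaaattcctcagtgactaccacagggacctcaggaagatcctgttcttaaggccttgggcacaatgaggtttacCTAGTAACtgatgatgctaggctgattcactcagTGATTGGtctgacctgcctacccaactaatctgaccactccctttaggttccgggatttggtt
H2-DMb2, chr17:34144999-34145248, plus strand: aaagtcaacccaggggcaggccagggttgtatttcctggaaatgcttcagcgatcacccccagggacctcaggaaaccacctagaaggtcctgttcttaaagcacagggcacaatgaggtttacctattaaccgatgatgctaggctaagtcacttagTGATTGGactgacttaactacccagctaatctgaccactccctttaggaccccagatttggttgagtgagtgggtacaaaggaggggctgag

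The X box of H2-Eb1 lay 94 to 87 bases before the start, with 25 bases between it and the Y box. In H2-DMb1 the X box lay 97 to 90 bases before the start and the Y box followed after 26 bases. H2-Aa held an X2 box 74 to 67 bases before its start, with 16 bases to the Y box, and H2-DMb2 held the Y box only. Neither of the 2 RefSeq start windows of H2-DMa held any of the 3 motifs, which says only that these letters are not in those windows. Across 32851 RefSeq promoter windows of the same length, the X box was found in 3.06%, the X2 box in 1.55%, the Y box in 7.23%, and a Y box together with an X or X2 box in 0.335%. Since the letters were chosen with the windows above in view, nothing is read from these shares. A match describes the sequence and does not show that a factor was bound. The deposited gene models of H2-DMb1 and H2-DMb2 begin upstream of these RefSeq starts.

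On GRCm38, as the deposited table gives the coordinates, Ciita spans 10480059 to 10526426 on the plus strand of chromosome 16 and overlaps Dexi on the opposite strand. Cd74 spans 60803848 to 60812646 on the plus strand of chromosome 18. The other 5 genes lie within 34119541 to 34316674 of chromosome 17, in the order H2-DMa (34119541 to 34139101, plus strand), H2-DMb1 (34153072 to 34160230, plus strand), H2-Ab1 (34257689 to 34269419, plus strand), H2-Aa (34282744 to 34287823, minus strand) and H2-Eb1 (34305867 to 34316674, plus strand). The model of H2-DMa overlaps Brd2, Gm20493 and Gm50335 on the opposite strand and Gm50336 on its own. Whether the authors' counting used strand is not given in the sources used here.

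Total estimated counts ranged from 57505990 to 96417834 per library (median 67234786). Low counts favoured multiples of 4, which were 1.81 to 2.28 times as frequent per library as their odd neighbours and 1.15 to 1.67 times as frequent as their even ones. About 4 counts were therefore taken as 1 read pair wherever read pairs are given, which puts the libraries at 14376498 to 24104458 read pairs. Within groups, 3 libraries stood apart. Pairwise chi-square per degree of freedom over genes was 722 to 761 for pairs with Q7-T replicate 2 against 57.6 for the remaining Q7-T pair, 327 to 459 with Q7-C replicate 1 against 42.8, and 185 to 209 with Q111-T replicate 2 against 37.1. Of 21 markers of macrophages or microglia, B cells and dendritic cells, 17 were in the table and 11 of these stayed under 0.5 TPM in every one of the 12 libraries. Ptprc, the pan-leukocyte phosphatase CD45, did not exceed 0.00642 TPM, and Adgre1 did not exceed 0.0463 TPM. The 6 that reached 0.5 TPM in some library were Pax5, Cd68, Zbtb46, Tmem119, Xcr1 and Lyz2. Cd68 was 5.8 to 8.24 TPM in Q7-C and 8.69 to 15.1 TPM in Q7-T. It was 14.2 to 16.5 TPM in Q111-C and 40.3 to 57.5 TPM in Q111-T. Tmem119 was lower after treatment, at 11.9 to 13.1 TPM in Q7-C and 2.96 to 3.34 TPM in Q7-T. In STHdhQ111 cells it was 17.4 to 20.2 TPM without treatment and 4.5 to 5.6 TPM with it. Pax5 ran from 0.958 to 1.91 TPM in Q111-T and did not exceed 0.0235 TPM in the other groups. Zbtb46, Xcr1 and Lyz2 did not exceed 0.823, 0.9005 and 1.57 TPM, respectively. The neuronal synaptic genes Snap25 and Syt1 did not exceed 0.0168 and 0.025 TPM, although the labels call the lines striatal neuronal, while the neuronal cytoskeletal genes Tubb3 and Map2 ranged from 2.56 to 83.6 and from 0.604 to 10.7 TPM, respectively. Of the striatal genes, Bcl11b and Gad1 did not exceed 0.0407 and 0.432 TPM in any library, and Penk and Ppp1r1b did not exceed 0.429 and 0.385 TPM in STHdhQ7 cells but reached 5.42 and 1.31 TPM in Q111-C. The study calls the replicates biological, the labels do not say whether they came from separate cultures, and p-values measure the spread between these libraries only.

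The first question was whether Ciita itself was induced in both lines. In STHdhQ7 cells Ciita was 0.0376, 0 and 0 TPM in Q7-C replicates 1 to 3 and 2.30, 0.917 and 1.98 TPM in Q7-T. In STHdhQ111 cells it was 0.0301, 0.012 and 0 TPM in Q111-C and 1.04, 0.317 and 0.945 TPM in Q111-T. Thus Ciita was at or near 0 in all 6 nontreated libraries and present in all 6 treated libraries, with no overlap between nontreated and treated cells of either line. The levels were low even after treatment: the mean of 1.73 ± 0.722 TPM (SD, n = 3) in Q7-T exceeded that of 28.6% of the genes tested, and the mean of 0.766 ± 0.391 TPM (SD, n = 3) in Q111-T exceeded 13.7%. In these bulk RNA samples, fewer cells making a transcript and less of it per cell cannot be told apart.

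**Figure D1:**
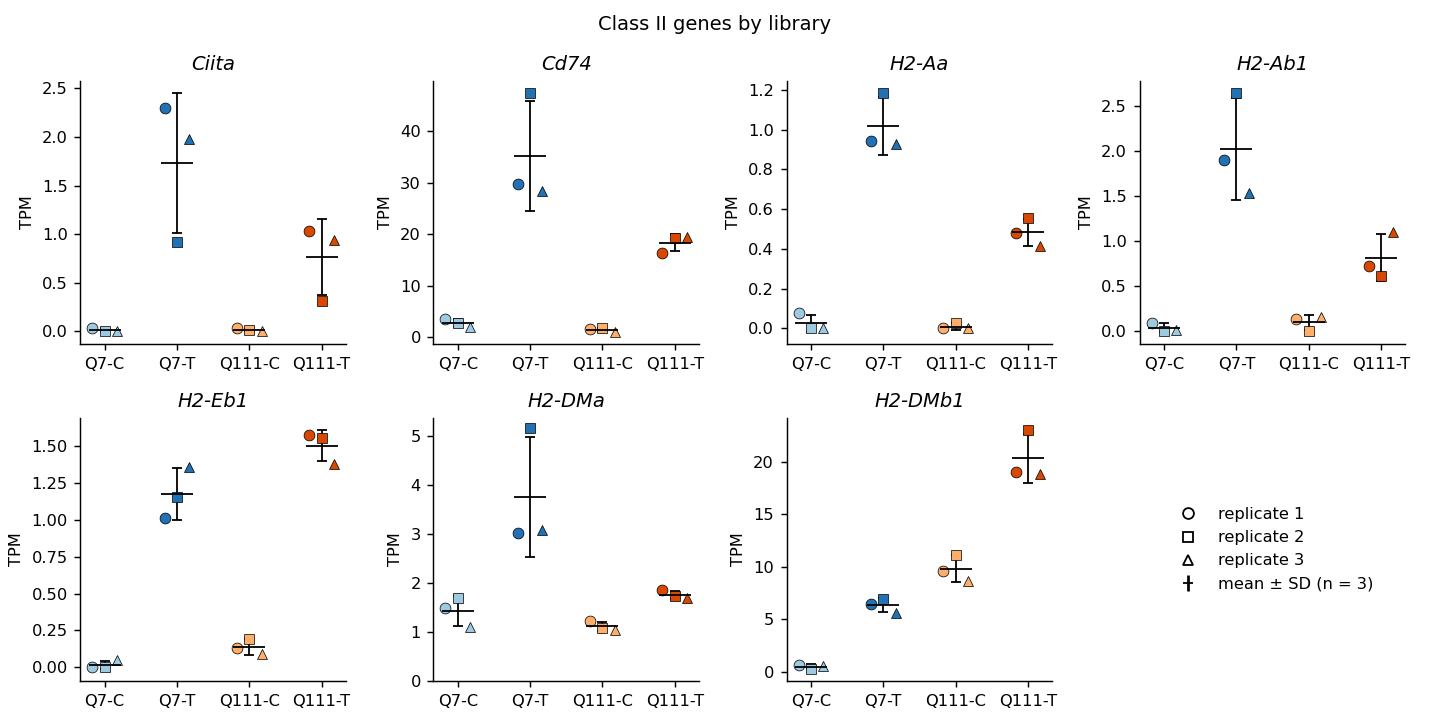
TPM of each of the 7 genes in every library, by group, on linear axes that differ between panels. Symbols mark the replicate and bars the mean ± SD (n = 3). Ciita, H2-Aa, H2-Ab1 and H2-Eb1 sat near 0 in both nontreated groups, whereas H2-DMb1 stood at 8.63 to 11.2 TPM in Q111-C.

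The Ciita rise was 7.04 ± 1.27 on the log2 scale (± SE) in STHdhQ7 cells (edgeR quasi-likelihood test, adjusted p = 0.0057) and 5.83 ± 1.22 in STHdhQ111 cells (edgeR, adjusted p = 0.00575). Fold changes from a group this close to 0 depend on a handful of reads. About 502 read pairs in Q7-T stood against about 4 in Q7-C, a depth-adjusted ratio of 138 with a 95% interval of 53.7 to 509 (exact binomial, counting error only). In STHdhQ111 cells about 178 read pairs stood against 3, a ratio of 68.4 with an interval of 23.0 to 335. All the Ciita counts of Q7-C came from replicate 1, the library that stood apart in that group. Ciita, H2-Aa, H2-Ab1 and H2-Eb1 entered the test only through their treated libraries, so they could enter it only by being higher after treatment in at least 1 line. A fit with no such filter was therefore also made for them, and there the Ciita rise passed in both STHdhQ7 (7.02, edgeR, adjusted p = 0.0054) and STHdhQ111 cells (5.82, edgeR, adjusted p = 0.00635).

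In STHdhQ7 cells Cd74, H2-DMa and H2-DMb1, the 3 genes that would have entered the test on their nontreated libraries alone, all rose with IFNγ/LPS. A gene was called when its adjusted p was below 0.05 and its change at least 2-fold, a rule that 2.93% of all genes tested passed as higher in Q7-T. Ciita, H2-Aa, H2-Ab1 and H2-Eb1 passed it too, but because of how they entered the test nothing is read from the count of 7 against that share. With no filter Ciita, H2-Ab1 and H2-Eb1 still passed and H2-Aa did not (5.24, edgeR, adjusted p = 0.0616). For each of the 7 every Q7-T library lay above every Q7-C library, as for 5.55% of all genes tested, a comparison to which the same limit applies.

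The classical chains, which form the peptide-binding molecules I-A and I-E, were almost silent in Q7-C. H2-Aa, the I-A alpha chain, was 0.0773, 0 and 0 TPM in Q7-C and 0.942, 1.18 and 0.928 TPM in Q7-T. H2-Ab1, the I-A beta chain, was 0.0939, 0 and 0.0179 TPM in Q7-C and 1.89, 2.64 and 1.53 TPM in Q7-T. H2-Eb1, the I-E beta chain, was 0, 0 and 0.0473 TPM in Q7-C and 1.01, 1.15 and 1.36 TPM in Q7-T. All 3 chains thus reached about the level of Ciita in Q7-T. Their log2 changes were 5.30 ± 1.29 for H2-Aa (edgeR, adjusted p = 0.0352), 5.62 ± 1.20 for H2-Ab1 (edgeR, adjusted p = 0.0168) and 6.30 ± 0.832 for H2-Eb1 (edgeR, adjusted p = 5.87e-04). With no filter the adjusted p (edgeR) was 0.0243 for H2-Ab1 and 0.00107 for H2-Eb1. The depth-adjusted ratios were 43.3 (95% interval 14.5 to 213) for H2-Aa, 43.0 (16.5 to 160) for H2-Ab1 and 79.3 (13.8 to 3176) for H2-Eb1, the last against a single read pair in Q7-C.

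Cd74, the invariant chain that fills the groove of new class II dimers and guides them to endosomes, was by far the most abundant of the 7 in Q7-T. It was 3.47, 2.74 and 2.05 TPM in Q7-C and 29.7, 47.4 and 28.4 TPM in Q7-T. The Q7-T mean of 35.2 ± 10.6 TPM (SD, n = 3) exceeded that of 82.7% of the genes tested, and the rise was 3.93 ± 0.470 on the log2 scale (edgeR, adjusted p = 2.7e-04).

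H2-DMa and H2-DMb1 encode the chains of DM, which removes the invariant-chain peptide and edits the bound peptides. H2-DMa was already present in Q7-C, at 1.48, 1.69 and 1.09 TPM, and was 3.02, 5.16 and 3.08 TPM in Q7-T. Its rise of 1.69 ± 0.404 (edgeR, adjusted p = 0.0327) was the smallest of the 7. H2-DMb1 was 0.663, 0.256 and 0.543 TPM in Q7-C and 6.49, 6.91 and 5.63 TPM in Q7-T, a rise of 3.85 ± 0.430 (edgeR, adjusted p = 1.53e-04). The calls of Ciita, Cd74, H2-Eb1 and H2-DMb1 held with any 1 library left out. Without Q7-C replicate 2, or without Q7-C replicate 3, those 4 were the only calls, and H2-Ab1 was called in the other 10 of these 12 fits. The calls of H2-Aa and H2-DMa were the least secure, with 4 of 12 fits each. H2-Aa passed only without Q7-C replicate 1 or any 1 of the Q111-C libraries, and H2-DMa only without Q7-C replicate 1, Q7-T replicate 1 or 3, or Q111-T replicate 2. Without Q7-T replicate 2 the log2 change of H2-DMa was 1.03.

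**Figure D2:**
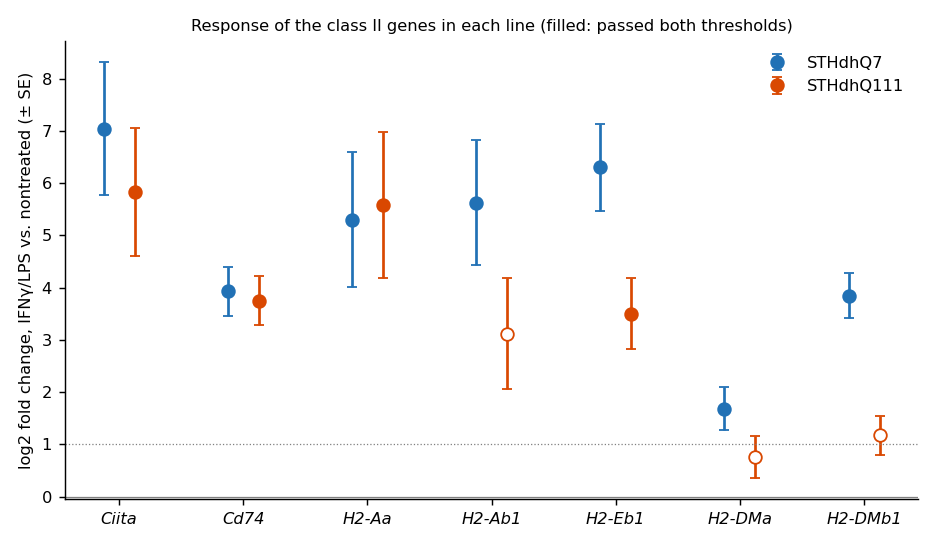
Log2 fold change (± SE) of each of the 7 genes after IFNγ/LPS in STHdhQ7 (blue) and STHdhQ111 (orange) cells. Filled points passed both thresholds and the dotted line marks the 2-fold threshold: all 7 did so in STHdhQ7 cells and 4 in STHdhQ111 cells, although Ciita, H2-Aa, H2-Ab1 and H2-Eb1 entered the test only through treated libraries.

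In STHdhQ111 cells 1 of the 3 genes that would have entered the test without the treated libraries rose, namely Cd74, where 8.28% of all genes tested were called higher. Ciita, H2-Aa and H2-Eb1 also rose, both with the filter and without it, and for the reason given above they are not set against that share. Every Q111-T library lay above every Q111-C library for all 7, as for 19.8% of all genes tested, with the same limit.

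Cd74 was 1.62, 1.77 and 0.977 TPM in Q111-C and 16.4, 19.3 and 19.4 TPM in Q111-T, a rise of 3.75 ± 0.471 (edgeR, adjusted p = 1.74e-04). H2-Aa was 0, 0.030 and 0 TPM in Q111-C and 0.478, 0.554 and 0.417 TPM in Q111-T. The H2-Aa rise was 5.58 ± 1.40 (edgeR, adjusted p = 0.0159), from 1 read pair to about 45, a ratio of 51.9 whose interval ran from 8.85 to 2094. H2-Eb1 was 0.131, 0.192 and 0.0867 TPM in Q111-C and 1.58, 1.55 and 1.38 TPM in Q111-T, a rise of 3.50 ± 0.680 (edgeR, adjusted p = 0.00357). With no filter the adjusted p (edgeR) was 0.0255 for H2-Aa and 0.00905 for H2-Eb1. Without Q111-C replicate 1, or without Q111-C replicate 3, the call of H2-Aa was lost.

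The other 3 genes did not pass in STHdhQ111 cells. H2-Ab1 was 0.136, 0 and 0.159 TPM in Q111-C and 0.727, 0.607 and 1.11 TPM in Q111-T, a change of 3.12 ± 1.07 (edgeR, adjusted p = 0.0659). H2-DMa was 1.22, 1.09 and 1.03 TPM in Q111-C and 1.85, 1.73 and 1.68 TPM in Q111-T, a change of 0.75 ± 0.398 (edgeR, adjusted p = 0.242). H2-DMb1 was 9.63, 11.2 and 8.63 TPM in Q111-C and 19.1, 23.1 and 18.9 TPM in Q111-T, a change of 1.17 ± 0.377 (edgeR, adjusted p = 0.0516). For all 3 the lowest treated library was above the highest nontreated one, so the missed threshold does not show that they stayed level. H2-Ab1 and H2-DMb1 both passed when Q7-C replicate 1, Q7-C replicate 2 or Q7-T replicate 2 was left out, and with the 3 libraries that stood apart left out H2-Ab1 passed (3.23, edgeR, adjusted p = 0.0179) while H2-DMb1 was at 0.98.

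Before treatment the lines differed in 2 of the 7 genes. H2-DMb1 in Q111-C exceeded its level in Q7-C by 3.90 ± 0.430 on the log2 scale (edgeR, adjusted p = 5.28e-05), and H2-Eb1 by 2.71 ± 0.824 (edgeR, adjusted p = 0.0344). Among all genes tested, 7.62% were called higher in Q111-C. For H2-DMb1, about 428 read pairs in Q111-C stood against 26 in Q7-C, a ratio of 15.2 with an interval of 10.2 to 23.5. Whether nontreated STHdhQ111 cells held more of it than treated STHdhQ7 cells depended on the scaling: in TPM the lowest Q111-C value lay above the highest of Q7-T, whereas in CPM adjusted as in the count model (by the trimmed mean of M values, TMM) Q7-T replicate 2 stood at 10.2 against 6.40 to 8.14 in Q111-C. The H2-Eb1 difference rested on about 7 read pairs against 1, a ratio of 6.46 whose interval of 0.83 to 291 includes 1. Leaving out Q7-C replicate 1 or 2, or Q111-C replicate 1 or 2, ended the H2-Eb1 call and kept that of H2-DMb1, and with no filter H2-Eb1 did not pass (2.73, edgeR, adjusted p = 0.061). Cd74 was lower in each Q111-C library than in every Q7-C library, as were 12.6% of all genes, by -1.29 ± 0.439 on the log2 scale, and did not pass (edgeR, adjusted p = 0.0559), and H2-DMa, at -0.69 ± 0.398, did not pass either (edgeR, adjusted p = 0.26). Ciita, H2-Aa and H2-Ab1 stood at 7 or fewer read pairs in each nontreated group, so no fold change between the lines is given for them.

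The second question was whether the class II genes followed Ciita in treated cells. The mean TPM of Ciita in Q7-T was 2.26 ± 1.49 times that in Q111-T (± propagated SD), and the groups overlapped in TPM, since 0.917 TPM in Q7-T replicate 2 was below 1.04 TPM in Q111-T replicate 1. In TMM-adjusted CPM they did not, at 7.73 or more in Q7-T and 4.48 or less in Q111-T. The corresponding ratio was 1.92 ± 0.606 for Cd74, 2.11 ± 0.423 for H2-Aa, 2.49 ± 1.06 for H2-Ab1 and 2.14 ± 0.704 for H2-DMa. For these 4 genes each Q7-T library exceeded every Q111-T library, as in 12.5% of all genes tested, a share from which nothing is read here. Ciita and H2-Aa would not have passed the filter without their Q7-T libraries. Cd74, both I-A chains and H2-DMa thus lay on the same side as Ciita. For Cd74 this ratio was already there without treatment, since its mean TPM in Q111-C was 0.529 ± 0.205 times that in Q7-C, against 0.522 ± 0.165 for Q111-T over Q7-T, whereas Ciita was near 0 in both nontreated groups.

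H2-Eb1 and H2-DMb1 did not. For both, each Q111-T library exceeded every Q7-T library in TPM, as in 33.9% of all genes tested, and the Q7-T to Q111-T ratio was 0.782 ± 0.128 for H2-Eb1 and 0.312 ± 0.0485 for H2-DMb1. On the scale of the count model the log2 difference of Q111-T from Q7-T was -1.55 ± 0.944 for Ciita, -1.47 ± 0.424 for Cd74, -1.55 ± 1.04 for H2-Aa, -1.83 ± 0.969 for H2-Ab1, -0.09 ± 0.599 for H2-Eb1, -1.63 ± 0.403 for H2-DMa and 1.22 ± 0.378 for H2-DMb1. The side of H2-Eb1 was not stable. It changed with the scaling, where TPM placed the median gene 0.34 log2 units higher in treated STHdhQ111 cells than in Q7-T, while the TMM normalisation of the count model placed it at -0.03, and it also changed within the count model when the 3 libraries that stood apart were left out (0.081). The side of the other 6 genes was the same under every scaling tried.

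Since Q7-T replicate 2 and Q111-T replicate 2 stood apart, the TPM ratios of Q7-T to Q111-T were also taken without both. They were 2.16 for Ciita, 1.62 for Cd74, 2.09 for H2-Aa, 1.87 for H2-Ab1, 0.802 for H2-Eb1, 1.73 for H2-DMa and 0.32 for H2-DMb1, so each gene kept its side.

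The library with the least Ciita was replicate 2 in both treated groups, at 0.917 TPM in Q7-T and 0.317 TPM in Q111-T. In Q7-T that same library had the highest Cd74 (47.4 TPM), H2-Aa (1.18 TPM), H2-Ab1 (2.64 TPM), H2-DMa (5.16 TPM) and H2-DMb1 (6.91 TPM), and none of the 6 class II genes was lowest there. In Q111-T the order of the libraries depended on the scaling. In TPM, H2-Aa (0.554) and H2-DMb1 (23.1) were highest in replicate 2, H2-Ab1 was lowest there (0.607), and H2-Eb1 (1.58) and H2-DMa (1.85) were highest in replicate 1, as Ciita was (1.04). In TMM-adjusted CPM, Ciita was again lowest in replicate 2 of both groups, at 7.73 and 1.62. On that scale all 6 class II genes were highest in replicate 2 of Q7-T, and all but H2-Ab1, which was highest in replicate 3, were highest in replicate 2 of Q111-T. With 3 libraries in a group no correlation was computed, and the part of whatever sets replicate 2 apart was not tested.

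**Figure D3:**
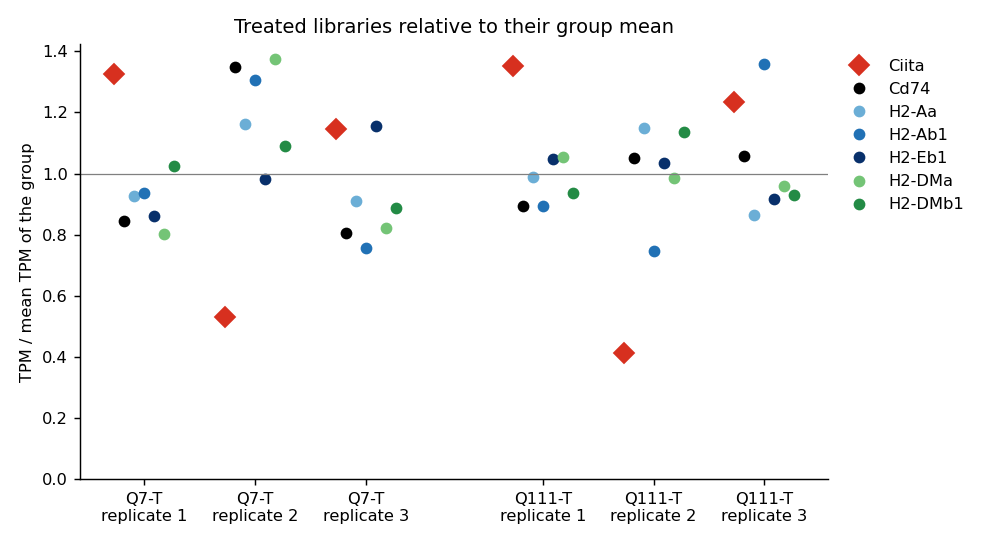
TPM of each gene in the 6 treated libraries, divided by its mean over the 3 libraries of the same group. Ciita (red diamonds) was lowest in replicate 2 of both groups, whereas 5 of the 6 class II genes were highest there in Q7-T.

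The response to treatment was also set against the line. The log2 response in STHdhQ111 cells minus that in STHdhQ7 cells was -2.68 ± 0.549 for H2-DMb1, -0.18 ± 0.605 for Cd74 and -0.93 ± 0.560 for H2-DMa. For Ciita and the classical chains this difference rests on nontreated levels of 1 to 7 read pairs, and no value is given. H2-DMb1 thus combined a high nontreated level in STHdhQ111 cells with a smaller log2 change there. Its mean went from 9.81 ± 1.28 TPM (SD, n = 3) in Q111-C to 20.3 ± 2.37 TPM in Q111-T. In STHdhQ7 cells it went from 0.487 ± 0.209 TPM, about 26 read pairs, to 6.35 ± 0.654 TPM. In TPM the gain was thus larger in STHdhQ111 cells.

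H2-DMb1 has a close paralog, H2-DMb2 (34143307 to 34151555 of chromosome 17), and 15.8% of the 75-base stretches of its transcripts also occur in transcripts of H2-DMb2, so reads could be divided between them uncertainly. None of the other 6 genes shared a 75-base stretch with another gene. H2-DMb2 was 0, 0 and 0.104 TPM in Q7-C, 1.58, 1.70 and 1.34 TPM in Q7-T, 0.164, 0 and 0 TPM in Q111-C and 0.329, 0.515 and 0.246 TPM in Q111-T. It made up 19.2 to 19.7% of the TPM of the pair in the 3 Q7-T libraries and 1.29 to 2.19% in the 3 Q111-T libraries, so H2-DMb2 and H2-DMb1 lay on opposite sides between the treated groups. H2-DMb2 rose in STHdhQ7 cells by 5.66 ± 1.37 (edgeR, adjusted p = 0.0343), from about 2 read pairs to 81. It entered the test only through treated libraries, and the call was lost in 11 of 24 alternatives, among them the fit with no filter and, at 4.78 (edgeR, adjusted p = 0.0631), the fit without the 3 libraries that stood apart. With the counts of both genes summed, the log2 change was 4.08 in STHdhQ7 cells, 1.19 in STHdhQ111 cells (edgeR, adjusted p = 0.0486, now called) and 3.82 between the nontreated lines, and Q111-T exceeded Q7-T by 0.92.

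**Figure D4:**
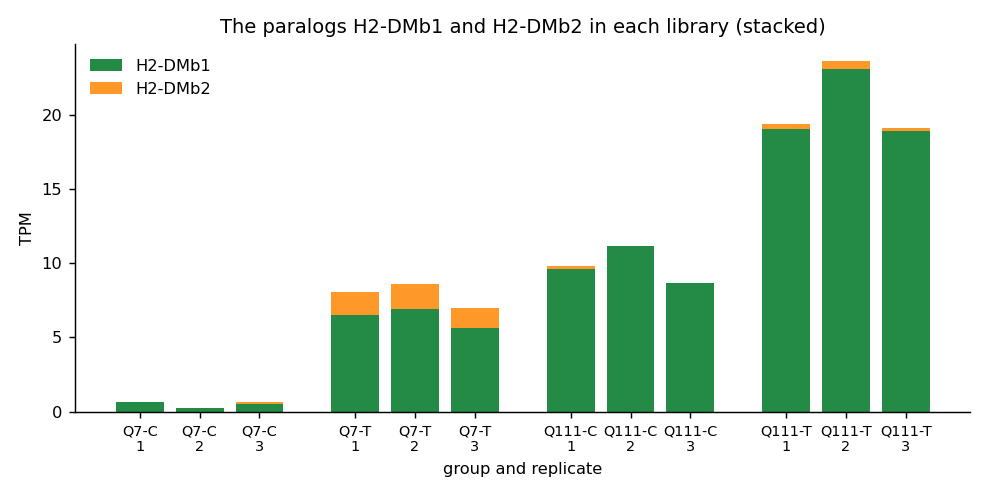
TPM of H2-DMb1 and, stacked on it, H2-DMb2 in each of the 12 libraries. The pair summed to 0.256 to 0.663 TPM in Q7-C and 8.63 to 11.2 TPM in Q111-C, and H2-DMb2 formed 19.2 to 19.7% of it in Q7-T. In Q7-C replicate 3 its share was 16.1%, of a sum of 0.647 TPM.

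Other genes of the class II pathway were taken from lists by role, which were chosen with earlier results of these data known. Counts over these lists are therefore a description beside the shares of all genes tested. Of 10 partners, 6 were tested, and the loading cofactors H2-Oa and H2-Ob, the cathepsin Ctss and the ubiquitin ligase Marchf1 were below the filter. Besides H2-DMb2, no partner rose in STHdhQ7 cells, where 2.93% of all genes tested were called higher. Sppl2a, the protease that clears the last invariant-chain fragment from the membrane, rose in STHdhQ111 cells by 1.26 ± 0.248 (edgeR, adjusted p = 0.00398). Ctsl, a cathepsin that trims the invariant chain, was higher in STHdhQ111 cells both without treatment (1.04 ± 0.182, edgeR, adjusted p = 0.00143) and with it (1.16 ± 0.183, edgeR, adjusted p = 5.07e-04). Lgmn, Ifi30 and Marchf8 passed in none of the 4 comparisons.

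The 12 factors through which Ciita acts at promoters were all tested. None passed in STHdhQ7 cells, where their median log2 change was 0.05 and 2.93% of all genes tested were called higher. In STHdhQ111 cells, where 8.28% of all genes tested were called higher, only Nfyb rose, by 1.34 ± 0.217 (edgeR, adjusted p = 0.00104). Nfyb is a subunit of the Y box factor NF-Y. With 12 genes both counts are near those shares, and nothing is read from them. Rfx5, the X box factor, changed by 0.10 in STHdhQ7 and 0.95 in STHdhQ111 cells without passing, and its difference of 1.22 ± 0.451 between Q111-T and Q7-T missed the threshold (edgeR, adjusted p = 0.0517). Its partners Rfxank and Rfxap passed in no comparison. Carm1, a methyltransferase that Ciita can bind, was lower in Q111-T than in Q7-T by -1.11 ± 0.117 (edgeR, adjusted p = 3.07e-05).

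Of 12 genes on the route from IFNγ to Ciita, 9 were tested, and Prdm1, Spi1 and Irf4 were below the filter. The shares of all genes tested that were called higher after treatment were 2.93% in STHdhQ7 and 8.28% in STHdhQ111 cells. In STHdhQ7 cells 3 rose: Irf1 by 4.15 ± 0.208, Irf8 by 6.18 ± 0.451 and Socs1, the feedback inhibitor, by 3.83 ± 0.616, with adjusted p-values from 2.25e-07 to 0.00258 (edgeR). In STHdhQ111 cells 5 rose: Irf1 by 3.61 ± 0.203, Irf8 by 6.23 ± 0.454, Socs1 by 3.40 ± 0.603, Irf2 by 1.80 ± 0.239 and the kinase Jak2 by 1.08 ± 0.296, of which the Jak2 call was lost in 9 of 24 alternatives, 5 of them the leaving out of 1 STHdhQ111 library. Irf8 entered the test only through treated libraries, and with no filter it still passed in both lines (6.15 in STHdhQ7 and 6.21 in STHdhQ111 cells, edgeR, adjusted p = 1.47e-06 and 1.07e-06). Irf1 ran from 126 to 322 TPM in Q7-T and from 403 to 595 TPM in Q111-T, a difference of 0.65 on the log2 scale that fell short of 2-fold. Irf2, which shares binding sites with Irf1, was higher in Q111-T by 1.75 ± 0.239 (edgeR, adjusted p = 1.87e-04), and so was the receptor chain Ifngr2, by 1.20 ± 0.137 (edgeR, adjusted p = 5.3e-05). Before treatment Irf1 (1.19 ± 0.186) and Ifngr2 (1.01 ± 0.136) exceeded their Q7-C levels in Q111-C, each past both thresholds.

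The class I pathway served as a counterpart under another transactivator. All 9 genes of that list, Nlrc5, B2m, H2-K1, H2-D1, Tap1, Tap2, Tapbp, Psmb8 and Psmb9, rose in both lines, with median log2 changes of 5.41 and 4.08. Among all genes tested, 2.93% were called higher after treatment in STHdhQ7 and 8.28% in STHdhQ111 cells. Nlrc5, the class I counterpart of Ciita, rose by 5.48 ± 0.434 in STHdhQ7 cells (edgeR, adjusted p = 8.39e-06) and by 4.85 ± 0.419 in STHdhQ111 cells (edgeR, adjusted p = 9.42e-06). While the mean of Ciita was lower in Q111-T than in Q7-T, that of Nlrc5 was higher there, by 1.19 ± 0.361 (edgeR, adjusted p = 0.0223). Of the other 8, H2-K1 was also higher in Q111-T and Psmb8 was lower, by -1.33 ± 0.385 (edgeR, adjusted p = 0.0186), where 13.3% of all genes tested were called higher and 11.2% lower, and 6 of the 9 did not pass. Without Q7-T replicate 2, or without Q111-T replicate 1 or 3, neither Nlrc5 nor Psmb8 passed, and without Q7-T replicate 2 their values were 0.87 and -0.71. Between the nontreated lines 6 of the 9 were higher in Q111-C, as were 7.62% of all genes tested.

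The remaining list held molecules that act on T cells alongside class II, namely costimulators and Cd274 (PD-L1), an inhibitory checkpoint ligand, with 4 of 5 tested. Cd40 and Cd274 rose in both lines and Cd80 in STHdhQ111 cells (2.67 ± 0.174, edgeR, adjusted p = 1.16e-06). Cd40 entered the test only through treated libraries, and with no filter it still passed in both lines (2.53 and 2.71, edgeR, adjusted p = 0.00335 and 9.1e-04). Icosl was called in both, but its STHdhQ7 call was lost in 14 of 24 alternatives and stood at 1.39 (edgeR, adjusted p = 0.0781) without the 3 libraries that stood apart. Cd80 was 1.18 to 2.33 TPM in Q7-T and 70.6 to 80.1 TPM in Q111-T, a difference of 4.93 ± 0.193 (edgeR, adjusted p = 6.49e-08) on the side opposite to that of Ciita. Icosl (3.13 ± 0.378) and Cd274 (1.71 ± 0.287) were also higher in Q111-T. Over all lists, 6 of the 40 genes tested had a response that differed between the lines, as did 4.71% of all genes tested.

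**Figure D5:**
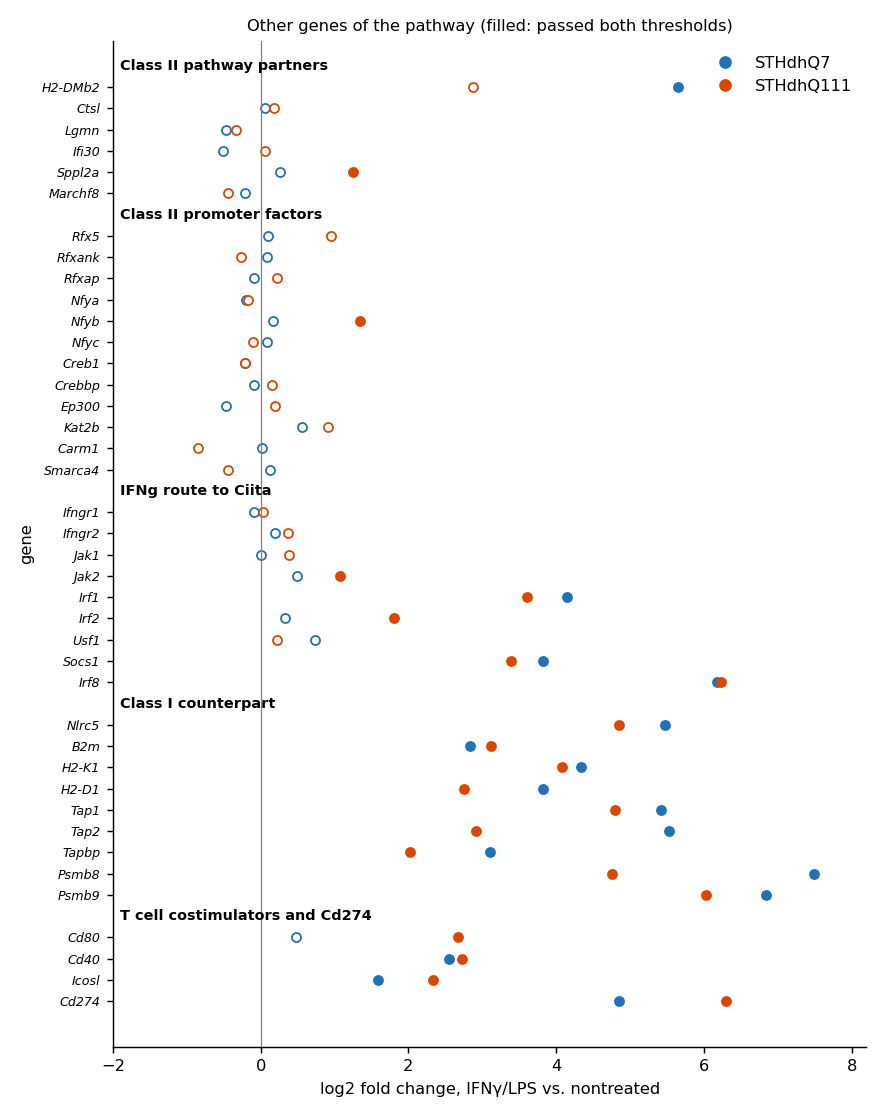
Log2 fold change after IFNγ/LPS of the 40 listed genes that were tested, in STHdhQ7 (blue) and STHdhQ111 (orange) cells, grouped by list. Filled points passed both thresholds, as all 9 class I genes did in both lines. Of all genes tested, 2.93% were called higher after treatment in STHdhQ7 and 8.28% in STHdhQ111 cells.

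To find the genes whose pattern was most like that of Ciita, the root mean square difference of centred log2(TPM + 0.5) was taken over the 12 libraries for each of the 16126 other genes tested. The nearest were Ido2 (0.246), Gsdmd (0.29), Ggct (0.301), Syt17 (0.317) and AU020206 (0.347). Among the class II genes H2-Ab1 ranked 10, H2-Aa 15, H2-Eb1 44, H2-DMa 91, Cd74 4332 and H2-DMb1 15102. This measure compares the size of changes as well as their pattern, and it depended on the pseudocount: with 0.1 only Ido2 of these 5 remained among the nearest 5, and Cd74 ranked 17, whereas with 1 Ido2 and Ggct remained and Cd74 ranked 14709.

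The interval of chromosome 17 from H2-DMa to H2-Eb1 holds 17 genes of the table, of which 8 besides the 5 class II genes described here were tested. Of these 8, the class I genes Psmb8, Psmb9, Tap1 and Tap2 were called higher after treatment in both lines, as were 2.93% of all genes tested in STHdhQ7 and 8.28% in STHdhQ111 cells. H2-DMb2 was called in STHdhQ7 cells with the limits given above. Tap1, Tap2 and Psmb8 were also called higher in Q111-C, as were 7.62% of all genes tested, and between the treated groups none of the 8 was called higher while Psmb8 was called lower in Q111-T (-1.33).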

How the data were processed

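The members and the gene lists were chosen with earlier results of these data known. Per the authors' methods, reads from stranded poly(A) libraries were trimmed with Cutadapt, mapped with HISAT2 to GRCm38 (Ensembl release 101), and quantified with StringTie and Ballgown. The authors deposited, per gene and library, TPM and estimated counts written as whole numbers, and how the counts were derived from the StringTie output is not given in the sources used here. TPM over the genes of the expression table summed to 688352 to 719623 per library, and where the rest of the TPM lies was not examined. Sequence stretches shared between genes were sought in GENCODE M21 transcripts.

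Estimated counts of the 16127 genes that reached 0.5 TPM in 3 or more libraries were tested with edgeR 4.0.16 in R 4.3.3 (TMM normalisation, quasi-likelihood, a mean for each of the 4 groups, all 12 libraries in 1 fit), with Benjamini-Hochberg adjustment over all genes. Calls required an adjusted p below 0.05 and a 2-fold change. All 7 members, the genes of the lists (promoter factors, IFNγ route, partners, class I, costimulators with Cd274, cell type markers) and the 5 genes nearest to Ciita could be named by rule. The lists were counted whole, except for 1 gene of the IFNγ route that is not reported here, and their genes were named where called or where a result turned on them. Ratios between groups with few reads used exact Clopper-Pearson intervals at 95% on counts divided by 4, and such intervals cover counting error only.

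The tests were checked on simulated data with 200 of 16127 genes changed 4-fold in Q111-T. In the response of STHdhQ111 cells edgeR called 129 genes, 125 of them changed ones with the right sign, and limma 3.58.1 called 132, of which 127. DESeq2 1.42.0 called 196, of which 155. It made 17 and 20 calls in the response of STHdhQ7 cells and between the nontreated lines, where nothing was changed. Its larger counts are to be read with that in view, within the limits of the simulation. The simulated counts were drawn with edgeR's own dispersions and held no library that stood apart, so the check does not rank the tools on these data. The pass mark of the check was lowered after DESeq2 had missed it. Replicates differed by more than sampling noise, with a chi-square per degree of freedom of at least 19.6. The alternatives were other normalisations (RLE factors, library totals only), filters, counts divided by 4, DESeq2, limma on log2(TPM + pseudocount) with pseudocounts of 0.1, 0.5 and 1, the compared groups alone, a replicate block and leaving out each library. Summing H2-DMb1 with H2-DMb2, and leaving out the 3 libraries that stood apart, were chosen after seeing the data.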

Additional observations from a re-analysis of the deposited data

Results flagged for a closer look

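The genes below were singled out because their response to IFNγ/LPS differed between the lines in the test of the difference itself (response of STHdhQ111 minus response of STHdhQ7, log2, edgeR's quasi-likelihood test).

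Tap2, a subunit of the class I peptide transporter, responded less in STHdhQ111 cells, by -2.61 ± 0.334 (edgeR, adjusted p = 0.00119), and so did Psmb8, an immunoproteasome subunit, by -2.74 ± 0.560 (edgeR, adjusted p = 0.0145). H2-D1 responded less there by -1.07 ± 0.260 (edgeR, adjusted p = 0.0344), a call that was lost in 15 of 23 alternatives. All 3 had been called higher in nontreated STHdhQ111 cells.

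Cd80 responded more in STHdhQ111 cells, by 2.19 ± 0.237 (edgeR, adjusted p = 4.43e-04). The response of Irf2 was larger there by 1.47 ± 0.330 (edgeR, adjusted p = 0.0238), and that of Nfyb by 1.17 ± 0.303 (edgeR, adjusted p = 0.045). Without the 3 libraries that stood apart the value of Nfyb was 0.85, below 2-fold, and those of Irf2 and Cd80 were 1.08 and 2.22. The call was lost in 18 of 23 alternatives for Nfyb, in 10 for Irf2, in 1 for Tap2 and in none for Cd80 or Psmb8.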

How the results depend on the processing

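In the count model the number of the 7 genes called was 7 in the STHdhQ7 response, 4 in the STHdhQ111 response and 2 between the nontreated lines, counts that include genes tested only because of their treated libraries. Calls of the 7 genes between the treated lines and for the difference between responses are not given, because the genes were chosen on that contrast. Leaving out 1 library at a time gave 4 to 7, 3 to 6 and 1 to 3 genes, in that order, and the lowest value of 4 came without Q7-C replicate 2 or 3. With only the groups compared in the fit, 4 were called in the STHdhQ7 response and 1 between the nontreated lines. In the STHdhQ111 response limma on log2(TPM + 1) called 2, whereas DESeq2, counts divided by 4, limma on log2(TPM + 0.1) and the compared groups alone each called 6, adding H2-Ab1 and H2-DMb1. Between the nontreated lines 1 was called with limma at pseudocounts of 0.5 and 1, with counts divided by 4 and with no filter on low values.

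Of the 40 listed genes tested, 6 had a difference between responses, against 3 with limma on log2(TPM + 0.1) and 3 to 8 with 1 library left out. Between the nontreated lines 11 of the 40 were called, all higher in Q111-C, where 7.62% of all genes tested were, and 7 to 11 with 1 library left out, the lowest without Q7-C replicate 3. H2-Eb1 between the treated lines, -0.09 in the count model, turned to 0.15 with library totals only, to 0.26, 0.34 and 0.21 with limma at pseudocounts of 0.5, 0.1 and 1, and to 0.081 without the 3 libraries that stood apart. Leaving out 1 library moved it between -0.29 and 0.17. The difference between responses for Cd74 turned positive without Q7-C replicate 3 or Q7-T replicate 2, and ran from -0.58 to 0.45 with 1 library left out. The causes of these shifts were not tested. No other fold change reported for the 7 genes changed sign.

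Same-numbered libraries did not deviate together: 6 of 18 pairs correlated above 0.1, from -0.416 to 0.303. Among the 3 libraries that stood apart, the deviation of Q7-C replicate 1 correlated with that of Q7-T replicate 2 at 0.456. With Q111-T replicate 2 it correlated at 0.359, and Q7-T replicate 2 with Q111-T replicate 2 at 0.175. What these libraries share was not tested. A replicate block gave 6, 4 and 2 genes called in the order above. The STHdhQ7 call of H2-Aa was lost with it, and between the nontreated lines Cd74 was called and H2-Eb1 was not. Depth limits the nontreated levels of Ciita, H2-Aa, H2-Ab1 and H2-Eb1, which rest on 1 to 7 read pairs per group.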
